A study of Homo sapiens with 12 samples.

Results

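Epithelial-mesenchymal transition (EMT) genes were followed in KYSE150, a human cell line from a squamous carcinoma of the oesophagus, after knockdown of ANLN, which encodes the actin-binding scaffold protein anillin. The 9 genes were chosen by name: the transcription factor genes SNAI1, SNAI2, ZEB1, ZEB2 and TWIST1, and the mesenchymal genes VIM, FN1, CDH2 and COL1A1. All 9 were found among the 58735 gene IDs of the 24 h table and the 38318 of the 48 h table. The groups were cells transfected with siRNA of ANLN (siANLN) for 24 h or 48 h, labelled as ANLN knockdown, and cells transfected with NC (siNC) for the same times, labelled WT. Each of these 4 groups had 3 libraries, which the labels call biological replicates. The labels do not say how many siRNAs were used, and the cells are 1 commercial line. The comparison asks which transcripts differ when ANLN is depleted.

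In EMT, epithelial cells loosen their junctions and take on a spindle-shaped, motile state. The SNAIL (SNAI1, SNAI2), ZEB (ZEB1, ZEB2) and TWIST factors bind E-boxes, short DNA words such as CAGGTG, and repress epithelial genes, of which CDH1, encoding E-cadherin, is the textbook target. VIM encodes the intermediate filament vimentin, FN1 the matrix glycoprotein fibronectin, CDH2 N-cadherin, and COL1A1 a chain of type I collagen. In squamous cancers, cells often show a partial state in which epithelial and mesenchymal genes are expressed together.

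Promoter sequences are shown for the 3 genes that passed the test at 48 h and had a RefSeq window (GRCh38.p14), because the EMT factors act on such regions and ZEB1 is a factor itself. Capitals mark the 6-letter E-box word CAGGTG, read on either strand (CACCTG on the other), and matches of these words cannot overlap each other. Each run is given 5′ to 3′ on the strand of the gene and stops before the annotated start of transcription.
VIM, chr10:17227991-17228240, plus strand: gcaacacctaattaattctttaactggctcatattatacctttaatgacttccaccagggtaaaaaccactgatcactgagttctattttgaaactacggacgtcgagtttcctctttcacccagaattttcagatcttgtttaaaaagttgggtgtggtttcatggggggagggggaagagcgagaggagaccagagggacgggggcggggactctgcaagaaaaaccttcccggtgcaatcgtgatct
ZEB1, chr10:31318167-31318416, plus strand: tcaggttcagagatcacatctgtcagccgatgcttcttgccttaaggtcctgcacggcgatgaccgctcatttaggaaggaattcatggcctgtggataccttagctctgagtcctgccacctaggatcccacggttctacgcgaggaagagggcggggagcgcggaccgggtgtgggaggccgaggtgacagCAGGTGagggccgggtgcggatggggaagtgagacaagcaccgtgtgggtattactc
FN1, chr2:215436173-215436318, minus strand: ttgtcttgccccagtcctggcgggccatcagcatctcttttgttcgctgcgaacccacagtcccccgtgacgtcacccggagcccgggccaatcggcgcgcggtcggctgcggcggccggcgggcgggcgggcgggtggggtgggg

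The word stood once in the ZEB1 run and in neither of the others. Over windows of 300 bases (250 before and 50 after a start), it was held by 20.6% of all 35116 windows and by 2 of the 12 windows of the 9 genes, both of them among the 7 windows of ZEB1. No window was used for SNAI1, SNAI2, TWIST1, COL1A1 or CDH1. Of 20 epithelial genes listed as EMT targets or keepers of the epithelial state, 10 had a window, and the word was held by 7 of their 12 windows (58.3%), which belong to CLDN3, CLDN7, OCLN, CRB3, RAB25 and ELF3. A match is a description of the letters and not a binding site.

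ANLN itself was lower in every siANLN library. Its level was 104 ± 6.12 CPM (counts scaled to library size with TMM factors) in siANLN and 892 ± 17 CPM in siNC at 24 h, and 80.8 ± 5.36 in siANLN and 731 ± 8.09 CPM in siNC at 48 h (mean ± SD, n = 3 each). Library totals lay between 14891932 and 17921808 counts at 24 h and between 11805488 and 12448411 at 48 h. The 8 squamous markers KRT5, KRT14, KRT6A, KRT17, TP63, DSG3, PKP1 and SFN were all tested, and their summed level was 3390 to 3510 CPM in siANLN and 4260 to 4550 CPM in siNC at 24 h, and 2740 to 2830 CPM in siANLN and 5490 to 5710 CPM in siNC at 48 h. Of these markers 6 fell at 24 h, when 4.86% of all genes tested did, and 8 at 48 h, when 21.3% did, and their part in the results for the EMT genes was not tested. In bulk RNA, fewer cells of a type and less RNA per cell cannot be told apart. The fibroblast markers (7 in the 24 h table, 5 in that of 48 h) summed to under 1 CPM in every library, with PDGFRA and COL1A2 at 0 counts in all 24 h libraries and PDGFRB and COL1A2 at 0 in all 48 h libraries. The endothelial markers VWF, PECAM1, CDH5 and KDR (3 of them in the 48 h table) summed to at most 2.1 CPM, and VWF fell at 48 h. The leukocyte gene CD68 was tested at 48 h only, where it was higher in siANLN (63.8 ± 0.283 CPM in siANLN, 38.6 ± 3.83 CPM in siNC). At 24 h CD68 had only 8 counts over the siANLN libraries and 3 over the siNC libraries. Its level thus differed between the tables in siNC as well, and time and table cannot be told apart. PTPRC, CD3E and LYZ were each under 1 CPM. The melanocyte markers (4 in the 24 h table, 3 in that of 48 h) summed to 6.85 to 8.29 CPM in siANLN and 6.28 to 8.71 CPM in siNC at 24 h, and to 29.7 to 34 CPM in siANLN and 29.8 to 33.1 CPM in siNC at 48 h, with PMEL the main part at the later time.

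Of the 9 genes, SNAI2, TWIST1, ZEB1, VIM, FN1 and COL1A1 were tested at each time, and CDH2, SNAI1 and ZEB2 were too low to test. The filter asked for about 10 counts in at least 3 libraries, which came to 0.623 CPM at 24 h and 0.831 CPM at 48 h. CDH2 had 0 counts in all 6 libraries at 24 h. At 48 h CDH2 had 2, 1 and 2 counts in siANLN and 0, 1 and 1 in siNC. ZEB2 had 0 counts everywhere except for 1 count in replicate 3 of siANLN at 48 h. A count of 0 allows a level of up to 3 counts, or 0.167 to 0.201 CPM per library at 24 h and 0.241 to 0.254 CPM at 48 h, so a change of CDH2 or ZEB2 was not detectable at this depth. These limits cover counting error only.

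SNAI1 was detected, but barely. Its counts were 5, 3 and 2 in siANLN and 7, 3 and 0 in siNC at 24 h. They were 2, 1 and 1 in siANLN and 3, 0 and 4 in siNC at 48 h. The groups overlapped at each time, and no test was made.

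Set per gene length, SNAI2 (Slug) was the most abundant of the 9 in each group. On the authors' FPKM scale SNAI2 averaged 18.8 ± 0.473 in siANLN and 19.6 ± 1.61 in siNC at 24 h, above 86.7% and 87.4% of 19951 protein-coding genes in those groups. FN1 and TWIST1 came next, with 8.06 and 6.46 FPKM in siANLN and 8.28 and 6.4 FPKM in siNC at 24 h. VIM (1.19 and 0.934 FPKM in siANLN and siNC), COL1A1 (0.518 and 0.616) and ZEB1 (0.37 and 0.349) followed. At 24 h no pair of neighbours overlapped between SNAI2 and ZEB1 in this order, in either group. CDH1 stood far above all of them, at 63.3 ± 1.48 FPKM in siANLN and 69.1 ± 1.65 FPKM in siNC.

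At 48 h the order was not the same in both groups. In siANLN it ran SNAI2 (10.8 FPKM), TWIST1 (7.41), FN1 (5.65), VIM (1.26), COL1A1 (1.12) and ZEB1 (0.544), with VIM and COL1A1 overlapping. In siNC it ran SNAI2 (10.5 FPKM), FN1 (6.87), TWIST1 (6.75), COL1A1 (2.16), VIM (0.871) and ZEB1 (0.355), with FN1 and TWIST1 overlapping. SNAI2 lay above 73.2% (siANLN) and 72.1% (siNC) of the 16638 protein-coding genes at 48 h, a different set from that at 24 h. CDH1 was at 84 ± 0.862 FPKM in siANLN and 100 ± 0.964 FPKM in siNC.

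**Figure D1:**
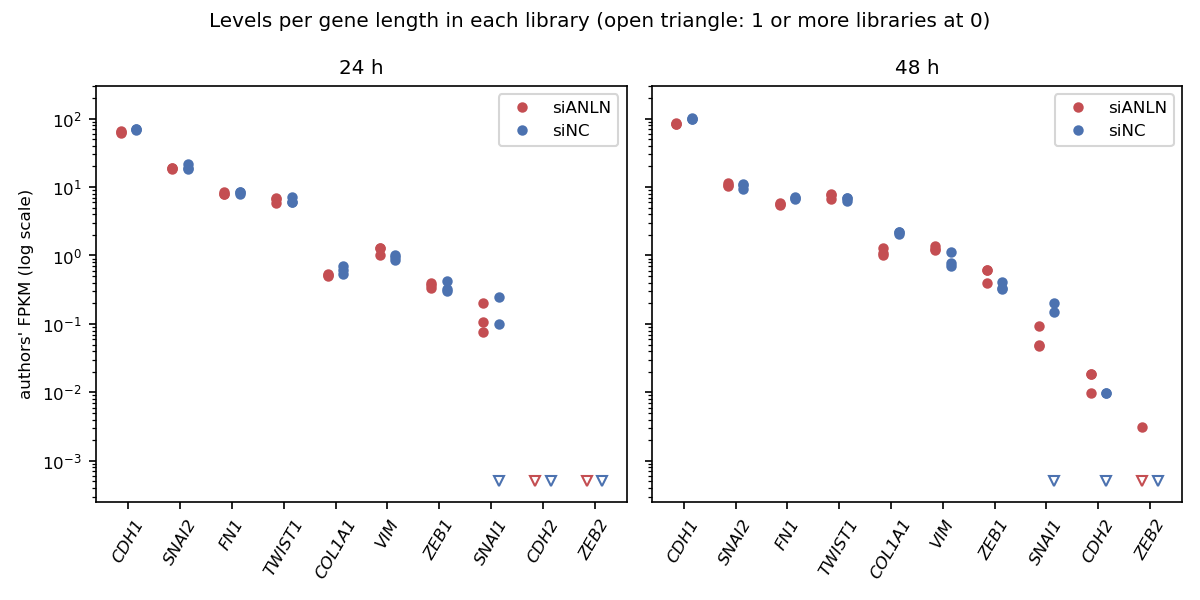
Levels per gene length (the authors' FPKM, log axis) of CDH1 and the 9 EMT genes in each library, at 24 h on the left and 48 h on the right, siANLN in red and siNC in blue; open triangles at the bottom mark groups with 1 or more libraries at 0. SNAI2 lies highest of the 9 and CDH2 and ZEB2 at or near 0.

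At 24 h, 0 of the 6 tested genes passed the threshold (edgeR quasi-likelihood test, Benjamini-Hochberg adjusted p under 0.05 over all genes tested), against 10.8% of the 14698 genes tested. By direction, 5.93% of all genes were called higher and 4.86% lower. At an unadjusted p under 0.05 there was 1, VIM, and DESeq2 and limma on FPKM also called 0. The groups did not overlap for 2 of the 6, VIM and COL1A1, against 25.6% of all genes tested.

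At 48 h, 4 of the 6 passed, against 43.6% of the 16994 genes tested. VIM and ZEB1 were called higher, against 22.2% of all genes, and FN1 and COL1A1 lower, against 21.3%. The groups did not overlap for 3 of the 6, VIM, FN1 and COL1A1, against 49.7% of all genes. Calls were common at 48 h, so the count is not a result about EMT genes as a class; their directions were split, with mesenchymal genes on each side.

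Among the transcription factor genes, SNAI2 (chr8:48917604-48921740, minus strand, GENCODE 29 on GRCh38), a zinc finger repressor of CDH1, had 64.8, 63.4 and 61.5 CPM in siANLN and 72.2, 64.5 and 61.9 CPM in siNC at 24 h. At 48 h SNAI2 had 35.6, 37.9 and 34.3 CPM in siANLN and 30.7, 36.4 and 34.9 CPM in siNC. The groups overlapped at both times. The log2 change was −0.07 (95% interval −0.18 to 0.05, edgeR adjusted p = 0.55) at 24 h and 0.08 (−0.05 to 0.21, edgeR adjusted p = 0.35) at 48 h.

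TWIST1 (chr7:19020991-19117672, minus strand), a basic helix-loop-helix factor, had 12, 13.8 and 13.4 CPM in siANLN and 14.4, 12.3 and 12 CPM in siNC at 24 h. At 48 h TWIST1 had 13.8, 15.3 and 16 CPM in siANLN and 13.7, 12.5 and 13.8 CPM in siNC. The groups overlapped at both times, at 48 h only through replicate 1 of siANLN, and neither comparison passed the test. The log2 change was 0.01 (95% interval −0.21 to 0.24, edgeR adjusted p = 0.97) at 24 h and 0.17 (−0.03 to 0.37, edgeR adjusted p = 0.16) at 48 h.

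ZEB1 (chr10:31318495-31529814, plus strand), a zinc finger and homeodomain repressor, had 3.23, 3.39 and 2.91 CPM in siANLN and 2.75, 2.63 and 3.62 CPM in siNC at 24 h. At 48 h ZEB1 had 5.38, 5.44 and 3.52 CPM in siANLN and 2.73, 2.86 and 3.53 CPM in siNC. At 24 h the groups overlapped, with a log2 change of 0.09 (95% interval −0.36 to 0.54, edgeR adjusted p = 0.87). At 48 h replicates 1 and 2 of siANLN lay above every siNC library, while replicate 3 lay among them. ZEB1 was called higher, with a log2 change of 0.65 (SE 0.19, 1.57-fold, edgeR adjusted p = 0.0024), from 173 counts in siANLN and 110 in siNC. This call was lost in DESeq2 (log2 0.66, SE 0.28, DESeq2 adjusted p = 0.062) and in limma on FPKM (log2 0.19 to 0.49, limma adjusted p = 0.23 to 0.31). The scale of limma, log2(FPKM + pseudocount), shrinks both the change and the SE of low genes (SE 0.1 with pseudocount 1, 0.24 with 0.1). The part of that scale in the lost call was not tested.

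An antisense gene, ZEB1-AS1, shares 366 exonic bases with ZEB1 on the other strand. The strand setting of the counting is not given in the sources used here, so the reads of such pairs cannot be told apart in the shared bases. At 48 h ZEB1-AS1 had 9.94, 8.41 and 6.88 CPM in siANLN and 3.31, 3.43 and 5.13 CPM in siNC, without overlap. Its log2 change was 1.09 (SE 0.16, edgeR adjusted p = 1.3e-10), with more counts than ZEB1 (305 in siANLN and 143 in siNC). At 24 h its change was 0.28 (SE 0.18, edgeR adjusted p = 0.38). What it adds to the value of ZEB1 was not tested.

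VIM (chr10:17228259-17237593, plus strand) had 5.25, 6.54 and 6.54 CPM in siANLN and 4.38, 4.8 and 5.18 CPM in siNC at 24 h. At 48 h VIM had 6.43, 6.29 and 7.2 CPM in siANLN and 3.64, 5.72 and 4.04 CPM in siNC. All siANLN libraries lay above all siNC libraries at each time, at 24 h by a narrow gap. The log2 change was 0.36 (SE 0.17, edgeR adjusted p = 0.19) at 24 h and 0.57 (SE 0.16, 1.49-fold, edgeR adjusted p = 0.0014) at 48 h. Like that of ZEB1, the 48 h call was not made by limma on FPKM (log2 0.28 to 0.51, limma adjusted p = 0.12 to 0.17). DESeq2 made it only just (log2 0.58, SE 0.24, DESeq2 adjusted p = 0.047).

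VIM too has an antisense partner, VIM-AS1, which shares 641 exonic bases with it. VIM-AS1 had 2.53, 1.53 and 2.54 CPM in siANLN and 1.41, 1.14 and 0.925 CPM in siNC at 48 h, with a log2 change of 0.92 (SE 0.29, edgeR adjusted p = 0.0055). At 24 h its change was −0.13 (SE 0.3, edgeR adjusted p = 0.87). A further antisense gene, AL133415.1, shares 619 exonic bases with VIM and was tested at 48 h only (2.29 ± 0.249 CPM in siANLN, 2.06 ± 0.768 CPM in siNC, log2 0.14, edgeR adjusted p = 0.68).

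FN1 (chr2:215360440-215436172, minus strand) had 145, 136 and 135 CPM in siANLN and 144, 138 and 145 CPM in siNC at 24 h. At 48 h FN1 had 101, 94.8 and 100 CPM in siANLN and 116, 120 and 115 CPM in siNC. The groups overlapped at 24 h and were apart at 48 h. The log2 change was −0.04 (95% interval −0.12 to 0.04, edgeR adjusted p = 0.67) at 24 h and −0.25 (SE 0.04, 84.2% of the siNC level, edgeR adjusted p = 1.1e-08) at 48 h.

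COL1A1 (chr17:50183289-50201632, minus strand) had 5.11, 5.21 and 4.86 CPM in siANLN and 5.26, 6.76 and 6.02 CPM in siNC at 24 h. At 48 h COL1A1 had 9.86, 9.35 and 11.6 CPM in siANLN and 18.4, 19.6 and 19.7 CPM in siNC. The siANLN libraries were the lower ones at each time. The log2 change was −0.25 (SE 0.17, edgeR adjusted p = 0.41) at 24 h and −0.9 (SE 0.1, 53.5% of the siNC level, edgeR adjusted p = 1.2e-16) at 48 h. COL1A2, the gene of the other chain of type I collagen, had 0 counts in all 12 libraries.

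**Figure D2:**
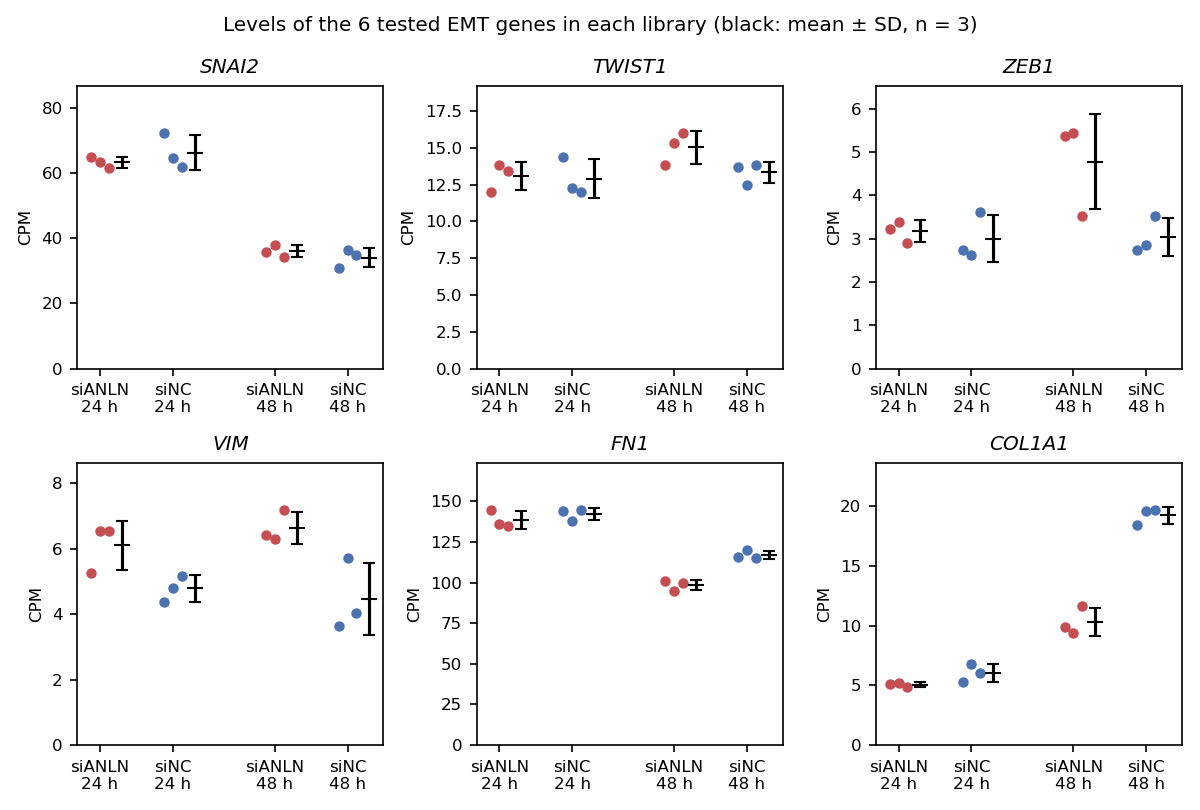
Levels (CPM, axes from 0) of the 6 tested EMT genes in each library, siANLN in red and siNC in blue, with the mean ± SD of 3 libraries in black. At 48 h the siANLN libraries of VIM lie above, and those of FN1 and COL1A1 below, every siNC library, and for ZEB1 replicate 3 of siANLN lies among the siNC libraries.

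Whether a change differed between the times was tested as the change at 48 h minus the change at 24 h, in a fit over all 12 libraries. Across all 17625 genes of that fit, 13% differed. COL1A1 (difference −0.64, SE 0.18, edgeR adjusted p = 0.011) and FN1 (−0.19, SE 0.06, edgeR adjusted p = 0.013) passed. The FN1 difference was not called without replicate 1 of siANLN at 24 h, replicate 2 of siANLN at 48 h or replicate 2 of siNC at 48 h (−0.16, −0.17 and −0.18, edgeR adjusted p = 0.058, 0.073 and 0.054). ZEB1 (0.57, 95% interval −0.01 to 1.15, edgeR adjusted p = 0.22), VIM (0.23, −0.24 to 0.69, edgeR adjusted p = 0.63), TWIST1 (0.17, −0.12 to 0.47, edgeR adjusted p = 0.55) and SNAI2 (0.16, −0.02 to 0.34, edgeR adjusted p = 0.28) did not pass.

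The deposited tables for 24 h and 48 h list different sets of gene IDs, and time and table cannot be told apart. In siNC, COL1A1 stood at 6.01 ± 0.75 CPM at 24 h and 19.2 ± 0.697 CPM at 48 h, and SNAI2 at 66.2 ± 5.36 and 34 ± 2.98 CPM. The gene lengths implied by counts and FPKM at 24 h and 48 h were 9744 and 9007 bases for COL1A1 and 3366 and 3281 bases for SNAI2. They were not close for every gene: for ITGB1 they were 5965 and 14561 bases.

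**Figure D3:**
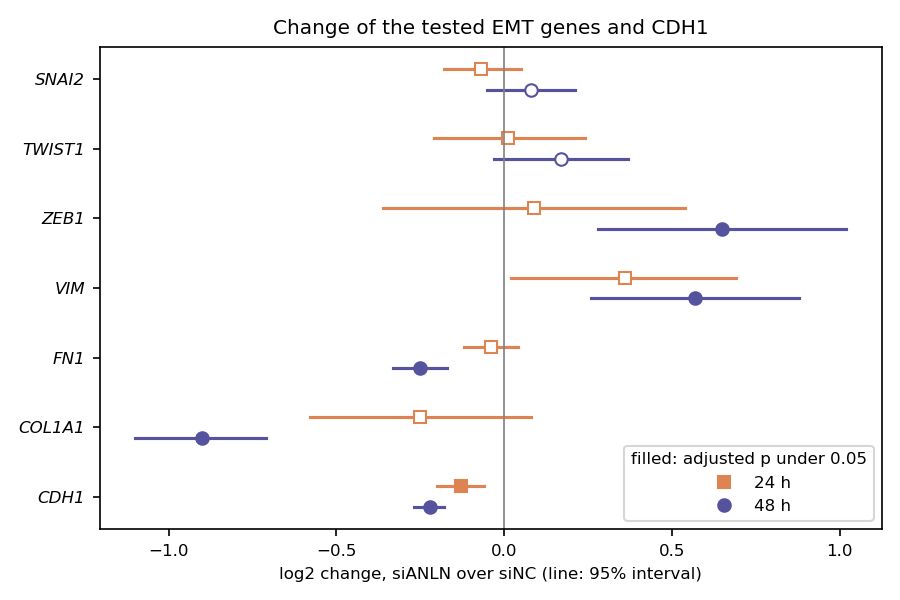
Log2 change, siANLN over siNC, of the 6 tested EMT genes and CDH1 at 24 h (squares) and 48 h (circles), with 95% intervals as lines and filled symbols for adjusted p under 0.05. Only CDH1 is filled at 24 h, and at 48 h ZEB1 and VIM lie to the right of 0 and FN1, COL1A1 and CDH1 to the left.

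CDH1, the epithelial cadherin gene that the EMT factors repress, fell at both times. It had 389 ± 9.31 CPM in siANLN and 424 ± 10.3 CPM in siNC at 24 h (log2 −0.13, SE 0.03, edgeR adjusted p = 0.0076). At 48 h it had 518 ± 4.86 CPM in siANLN and 605 ± 7.26 CPM in siNC (log2 −0.22, SE 0.02, edgeR adjusted p = 5.3e-18). Its antisense neighbour AC099314.1, which shares 347 exonic bases with it, had 96.1 ± 4.95 CPM in siANLN and 106 ± 2.6 CPM in siNC at 48 h. It was also called lower there (log2 −0.15, SE 0.04, edgeR adjusted p = 0.0014). At 24 h AC099314.1 had 2 counts over the siANLN libraries and 0 over the siNC libraries and was too low to test. At 48 h it had 3485 counts in siANLN and 3854 in siNC. Time and table cannot be told apart in this contrast. Its part in the CDH1 values was not tested.

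Of the 20 epithelial genes, CDH1 and CLDN4 fell and 0 rose of the 19 tested at 24 h (10.5% called, against 10.8% of all genes), with a median log2 change of −0.05 against −0.005 over all genes. At 48 h 5 fell, 1 rose and 12 of the 18 tested did not pass (33.3% called, against 43.6% of all genes), with a median of −0.1 against −0.003 over all genes. ELF3, an ETS factor of epithelia, had 38.7 ± 1.21 CPM in siANLN and 65.8 ± 2.32 CPM in siNC at 48 h (log2 −0.76, SE 0.06). CLDN4, a tight junction claudin, had 369 ± 14.8 CPM in siANLN and 466 ± 6.96 CPM in siNC at 48 h (log2 −0.34, SE 0.03). LLGL2 and ST14 were the others that fell, and EPCAM rose (log2 0.15, SE 0.04). ESRP1 and ESRP2, splicing factors of the epithelial state, had log2 values of 0.02 and −0.03 at 48 h and GRHL2 of −0.05, and none of these 3 passed.

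Among 16 other EMT transcription factors and their regulators, TCF3 and HMGA2 rose and 0 fell of the 10 tested at 24 h (20% called, against 10.8% of all genes). At 48 h 4 rose and 4 fell of the 9 tested (88.9% called, against 43.6% of all genes). The median log2 change was 0.02 at 24 h and −0.24 at 48 h. SOX9 had 63.3 ± 0.398 CPM in siANLN and 30.3 ± 3.06 CPM in siNC at 48 h (log2 1.06, SE 0.06). HMGA2, a chromatin protein, had 181 ± 2.44 CPM in siANLN and 115 ± 2.52 CPM in siNC at 48 h (log2 0.65, SE 0.04; at 24 h 0.44, SE 0.04). TCF3, an E protein that pairs with helix-loop-helix factors such as TWIST1, changed by 0.59 (SE 0.05) at 48 h and 0.29 (SE 0.05) at 24 h. The other called higher at 48 h was FOXQ1, and TCF4, KLF8, ID1 and ID2 fell. FOXQ1 was low and its groups overlapped (1.68 ± 0.582 CPM in siANLN, 0.992 ± 0.409 CPM in siNC). Its call stood at the threshold (edgeR adjusted p = 0.05 after rounding). SNAI3, PRRX1 and FOXC2 were too low to test at either time. TWIST2 and GSC had 0 counts at 24 h and were not in the 48 h table. ID3, tested at 24 h (13.5 ± 1.33 CPM in siANLN, 14.6 ± 0.28 CPM in siNC) and not called, was not in the 48 h table either.

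Of 28 other mesenchymal and matrix genes, 15 were tested at 24 h, where COL5A2 rose and 0 fell (6.67% called, against 10.8% of all genes). At 48 h 6 rose, 4 fell and 4 did not pass among 14 tested (71.4% called, against 43.6% of all genes), with a median log2 change of 0.16. AXL, a receptor tyrosine kinase, had 551 ± 3.46 CPM in siANLN and 412 ± 9.92 CPM in siNC at 48 h. CD44, the hyaluronan receptor, had 1040 ± 18.3 CPM in siANLN and 847 ± 12.9 CPM in siNC. The fibrillar collagen gene COL5A2 rose by 0.83 (SE 0.27) at 24 h and 0.95 (SE 0.26) at 48 h, opposite in sign to COL1A1. COL5A2 was low (3.23 ± 0.755 CPM in siANLN and 1.79 ± 0.739 CPM in siNC at 24 h). Its groups overlapped at 24 h (edgeR adjusted p = 0.03), when COL1A1 was not called. LOXL2 and TNC also rose at 48 h, and COL6A1, FBN1, S100A4 and MMP2 fell.

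TGF-beta signalling is a main inducer of EMT, and all 12 genes listed for it were tested. At 24 h 3 rose and 1 fell (33.3% called, against 10.8% of all genes), and at 48 h 6 rose and 2 fell (66.7% called, against 43.6%), with medians of −0.01 and 0.11. INHBA, the activin A subunit gene, had 34.6, 33.7 and 32.3 CPM in siANLN and 5.13, 4.09 and 5.38 CPM in siNC at 48 h (log2 2.79, SE 0.1). TGFB1, a ligand, had 227 ± 6.09 CPM in siANLN and 176 ± 6.3 CPM in siNC at 48 h. SKI, an inhibitor of SMAD proteins, changed by 0.51 (SE 0.04) at 48 h and 0.32 (SE 0.05) at 24 h. SMAD2, a signal transducer, changed by −0.37 (SE 0.04) and −0.25 (SE 0.05). TGFB2, TGFBR1 and SMAD3 also rose at 48 h, and the receptor gene TGFBR2 fell.

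Among 11 genes of binding partners, 1 rose and 4 fell of the 9 tested at 24 h (55.6% called, against 10.8% of all genes, median −0.11). At 48 h 2 rose and 4 fell (66.7% called, against 43.6% of all genes, median −0.03). ITGB1 and ITGA5 encode the chains of the main fibronectin receptor. ITGB1 had 417 ± 3.67 CPM in siANLN and 298 ± 2.42 CPM in siNC at 48 h (log2 0.49, SE 0.03). ITGA5 fell by 0.13 on the log2 scale (SE 0.04) at 24 h and had a log2 value of −0.03 (SE 0.03) at 48 h, where it did not pass. ITGAV, whose product also binds fibronectin, changed by −0.25 (SE 0.04) at 48 h. The cadherin-binding catenin gene CTNND1 changed by −0.37 (SE 0.02) at 48 h, and JUP by −0.15 at each time. PLEC, which encodes a linker of intermediate filaments, fell by 0.18 on the log2 scale (SE 0.03) at 24 h and had a log2 value of −0.02 (SE 0.02) at 48 h, where it did not pass. The intermediate filament gene SYNM fell at 48 h by 0.56 on the log2 scale.

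The last list held 15 corepressors and stability regulators of the SNAIL and ZEB proteins. Of the 14 tested, 2 rose and 1 fell at 24 h (21.4% called, against 10.8% of all genes, median 0.03). At 48 h 4 rose and 3 fell (50% called, close to the 43.6% of all genes, median 0.04). LATS2, a Hippo pathway kinase, changed by 0.3 (SE 0.06) and 0.5 (SE 0.06) at 24 h and 48 h. HDAC1, a histone deacetylase, changed by 0.13 (SE 0.04) and 0.26 (SE 0.03), and the corepressor gene CTBP2 by −0.19 (SE 0.04) and −0.18 (SE 0.04). GSK3B, a kinase that marks SNAI1 protein for degradation, changed by 0.25 (SE 0.05) at 48 h.

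**Figure D4:**
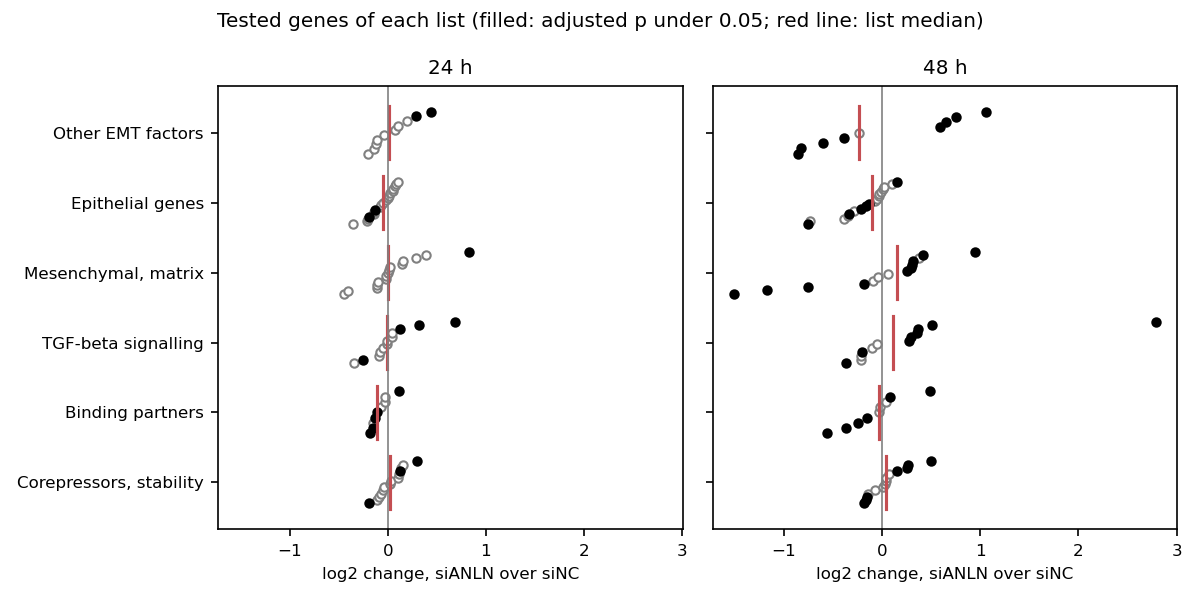
Log2 change, siANLN over siNC, of each tested gene in the 6 lists at 24 h (left) and 48 h (right); filled points passed adjusted p under 0.05 and red lines are list medians. The list medians lie between −0.11 and 0.03 at 24 h and between −0.24 and 0.16 at 48 h, and INHBA is the point farthest to the right at 48 h.

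The genes whose levels followed those of each EMT gene most closely were ranked by Pearson's r of log2 CPM, centred within each time, over 12 libraries and 9517 other protein-coding genes of at least 5 CPM. These points share libraries and only 4 groups, so r is a description. For COL1A1 they were BMP7 (0.979), ARPC5 (0.978) and HES2 (0.975), for FN1 SPAST (0.964), DST (0.959) and PAQR6 (0.958), and for VIM HDAC1 (0.954), CHPT1 (0.945) and PTPMT1 (0.921). The closest to SNAI2 were RBMX (0.888), ZBTB25 (0.869) and SNAP47 (0.828). The closest to TWIST1 were SPTSSA (0.873), FKBP8 (0.873) and RAB27A (0.868). ZEB1 was under 5 CPM and was not ranked.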

How the data were processed

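Poly(A) libraries from 12 samples were sequenced as paired reads, per the labels' protocols. The submitters' processing notes name cutadapt 1.18, STAR 2.7.3a, featureCounts, DESeq2 1.44.0 and GRCh38. The authors deposited whole-number read counts per gene and, separately, FPKM values, with 1 pair of tables for each time. At 48 h 243 repeated lines had identical values and were kept once. Replicate pairs differed by more than sampling noise, so no library was counted as a copy. The chi-square per gene was 2.64 to 2.99 at 24 h and 1.28 to 1.56 at 48 h, closer to counting noise alone. The common coefficient of variation between replicates in edgeR was 0.039 at 24 h and 0.02 at 48 h. The numbers of calls at the 2 times therefore rest on unlike spreads, whose part in them was not tested. Each p-value sets a change against the spread between these libraries only. Whether that spread stands for separate experiments was not tested.

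The deposited counts were filtered with filterByExpr, scaled by TMM and tested within each time in R 4.3.3 with the robust quasi-likelihood F test of edgeR 4.0.16, siANLN over siNC, all two-sided, with Benjamini-Hochberg adjustment over all genes. SE is the log2 change over the root of F. The test was also run on simulated counts with 200 changed genes. That simulation gave every gene the same fixed spread and changed fewer genes than were called at either time. It therefore does not measure the error rates in these data. The alternatives were other scalings, no filter, DESeq2 1.42.0, limma-trend 3.58.1 on the authors' FPKM (pseudocount 1 or 0.1), a fit over all libraries, a replicate block and leaving out each library. The numbers of the replicates pair nothing in the labels.

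The EMT genes and gene lists were chosen with earlier results of these data known, and lists are described by counts and medians with no set test. The text names ANLN, CDH1, the 9 genes, up to 3 called genes per list at 48 h and 2 at 24 h by smallest p, and the 3 genes most like each EMT gene; some listed genes are counted but not reported by name here. Other names are completions of small counts, chosen after their values were seen, as are ESRP1, ESRP2 and GRHL2, named as uncalled members, and the antisense neighbours.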

Additional observations from a re-analysis of the deposited data

Results flagged for a closer look

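The changes of COL1A1 and FN1 differed between the times by the test of the difference itself. COL1A1 differed by −0.64 (change at 48 h minus change at 24 h, log2, SE 0.18, edgeR adjusted p = 0.011), with changes of −0.9 at 48 h and −0.26 at 24 h in that fit. All 3 siANLN libraries were lower than all siNC libraries at each time. Its siNC level also differed between the tables, 19.2 ± 0.697 CPM at 48 h and 6.01 ± 0.75 CPM at 24 h, and the part of that in the difference was not tested. FN1 differed by −0.19 (SE 0.06, edgeR adjusted p = 0.013), with changes of −0.25 at 48 h and −0.05 at 24 h in that fit, and 3 of 3 siANLN libraries were lower than every siNC library at 48 h.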

How the results depend on the processing

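Over 9 settings and 6 left-out libraries per time, the number of EMT genes called stayed at 0 at 24 h. At 48 h it was 4 in every leave-one-out fit, 3 in DESeq2, where ZEB1 was lost, and 2 in each of the 3 limma fits on FPKM, where VIM and ZEB1 were lost; FN1 and COL1A1 were called in every setting. Over all genes, limma on FPKM called 602 (pseudocount 1), 642 (pseudocount 0.1) and 349 (no filter) at 24 h, against 1585. At 48 h it called 4980, 5041 and 4232 in the same order, against 7402. DESeq2 called 1130 at 24 h and 5041 at 48 h, and the other settings 1398 to 2026 and 6103 to 7403. The share of all genes called thus depends on the method, and the cause was not tested. Leaving out a library gave 1285 to 1421 genes at 24 h and 6631 to 6809 at 48 h. The sign of the uncalled TWIST1 change at 24 h was not kept in the fit over all 12 libraries (0 after rounding) and in 4 of 6 leave-one-out fits (−0.03 to 0.1 over the 6, against 0.01), namely without replicates 2 and 3 of siANLN (−0.03 and −0.01) and without replicates 2 and 3 of siNC (−0.02 and −0.03). EMT genes whose change differed between the times numbered 1 to 2 over 12 left-out libraries, FN1 being the one lost, and 2 in the other settings.

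Replicate numbers are shared by the groups, but deviations of same-numbered libraries correlated weakly (r from −0.05 to 0.06). With the replicate block 1772 genes were called at 24 h and 7355 at 48 h, with 0 and 4 EMT genes and 2 differences between the times. Depth limits CDH2, SNAI1 and ZEB2, which had at most 7 counts in a library, and ZEB1 and VIM, whose calls rest on 33 to 88 counts per library at 48 h.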

Other observations

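Several listed genes stood at very different levels in the tables of the 2 times, in siANLN and siNC alike. OCLN, a tight junction gene, had 24.5 ± 1.02 CPM in siANLN and 26.9 ± 2.76 CPM in siNC at 24 h, and 2.15 ± 0.245 CPM in siANLN and 2.82 ± 0.233 CPM in siNC at 48 h. MARVELD2, another gene of tight junctions, had 24.9 ± 1.6 CPM in siANLN and 23.5 ± 1.21 CPM in siNC at 24 h, and 1.32 ± 0.222 CPM in siANLN and 1.69 ± 0.227 CPM in siNC at 48 h. CLDN7 had 31.9 ± 2.3 CPM in siANLN and 31.9 ± 2.79 CPM in siNC at 24 h and was too low to test at 48 h. TAGLN, an actin-binding gene of contractile cells, went the other way, with 2.04 ± 0.441 CPM in siANLN and 2.68 ± 0.92 CPM in siNC at 24 h, and 28.7 ± 1.08 CPM in siANLN and 27.6 ± 0.801 CPM in siNC at 48 h. CD68 and AC099314.1, given above, were also far higher at 48 h in both groups. These genes were chosen after their values were seen, and time and table cannot be told apart. For ITGB1 the 2 tables did not use the same gene length (5965 and 14561 bases implied at 24 h and 48 h). The part of such a difference in the levels named here was not tested.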
